A study of Mus musculus with 6 samples.

Results

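Retinoic acid is made and removed inside tissues by a small set of enzymes, and 9 genes of this system were followed in cultured mesenchymal cells of the mouse small intestine. The genes are Aldh1a1, Aldh1a2 and Aldh1a3 for synthesis, Cyp26a1 and Cyp26b1 for degradation, Crabp1 and Crabp2 for binding in the cytosol, Stra6 for uptake of retinol and Rarb for a nuclear receptor. They were chosen by symbol, and all 9 have a row among the 23329 genes of the count tables. Of these, 7 had enough counts to be tested, with at least 12 counts in every library, and Crabp1 and Stra6 did not.

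The RNA came from primary cultures of C57 mice, 3 of them embryonic, taken at day 14.5 of gestation (E14.5), and 3 adult, at passage 2 to 3. All 6 grew in medium with fetal bovine serum, β-mercaptoethanol and the kinase inhibitor Y27632, after chelation to take off the epithelium and digestion with collagenase and dispase. Villi were scraped off in the adult gut only, and the embryonic gut was minced instead. Neither the age of the adults, nor the number of animals behind a culture, nor any sorting of the cells is given in the labels.

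Retinol enters cells or is brought to them in blood, is oxidised to retinaldehyde, and is then oxidised to retinoic acid by the ALDH1A enzymes. CRABP proteins carry retinoic acid in the cytosol, CYP26 enzymes oxidise it to inactive products, and in the nucleus it binds RAR receptors, which sit on DNA with RXR partners. In the gut, retinoic acid made by stromal and dendritic cells is known for imprinting gut homing on lymphocytes, and in the embryo it patterns the body axis, with Rarb and Cyp26a1 among its classical induced genes.

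Gene totals ran from 18850224 to 32672370 counts per library. Fibroblast markers summed to 12570 to 24340 CPM (counts per library scaled to a common total) in E14.5 and to 12220 to 20910 CPM in adult libraries, and all 8 were detected in every library. Of the 8, 3 were lower in every E14.5 library, and 1 of them, Pdgfra, was called lower (log2 fold change -3.72, adjusted p = 0.036, edgeR). Pdgfra, a receptor gene of fibroblast subsets, had 2.47, 3.85 and 4.45 CPM in E14.5 replicates 1, 2 and 3, against 29.45, 80.95 and 31.75 CPM in adult replicates 1, 2 and 3. Its call was lost with limma-voom, with the shared prefix of the sample titles as a block (adjusted p = 0.0808 and 0.0938), and without E14.5 replicate 1 or 3 or adult replicate 1 or 3 (adjusted p of 0.126, 0.0747, 0.068 and 0.141), and also without E14.5 replicate 3 and adult replicate 2 together (0.0552) or both adult replicates 2 and 3 (0.323). Of 7 epithelial markers, Cdx2 and Fabp2 were at 0 counts in all libraries, while the sum lay between 25.3 and 61.8 CPM in embryonic cells and between 9.98 and 14.3 CPM in adult cells. Most of that was Krt20, which was higher in every E14.5 library (at least 24.4 CPM) than in any adult one (at most 13.75 CPM). The 6 smooth muscle markers had a larger sum than the fibroblast markers in every library. This sum ranged from 24690 to 35830 CPM for embryonic cells and from 18420 to 29620 CPM for adult cells. Only Des among them separated the groups, at 1722 to 2625 CPM in embryonic and 236.1 to 1023 CPM in adult libraries. It was not called. Several libraries stood apart in other marker lists. Endothelial markers (10 genes) reached 18.8 to 39.97 CPM in E14.5 libraries, against 29.6, 1915 and 419 CPM in adult replicates 1, 2 and 3. E14.5 replicate 2 had mesothelial markers (8 genes) at 809 CPM, while E14.5 replicates 1 and 3 had 164 and 155 CPM, against 669 to 1574 CPM in adults. Macrophage and leukocyte markers (11 genes) had sums of 161, 329.5 and 1954 CPM in E14.5 replicates 1, 2 and 3, against 162, 21.4 and 44.9 CPM in adult replicates 1, 2 and 3.

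The clearest difference lay in degradation. Cyp26b1, the CYP26 gene of highest level in these cultures, fell in the embryonic cells, and 1 of the 9 members was thus called at an adjusted p under 0.05. Over all 13478 genes tested, 1.08% were called, 0.838% lower and 0.245% higher. The other 6 tested members were not called. Of these, Aldh1a1, Aldh1a3 and Cyp26a1 had lower levels in every E14.5 library than in any adult one, and Rarb had higher levels. Groups without overlap were thus found for 4 tested members with E14.5 below and 1 with E14.5 above, where 12.0% and 12.1% of all genes tested lay that way. The median log2 fold change of the 7 was -2.18, against 0.01 over all genes tested. In DESeq2, a count model that calls more genes here (10.6% of 13449 with an adjusted p), 6 of the 7 passed, with Crabp2 the exception. The members were chosen with earlier results of these data known. Their counts and median beside those of all genes are therefore a description and not a test. In bulk RNA, fewer cells of a type and less RNA per cell cannot be told apart.

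**Figure D1:**
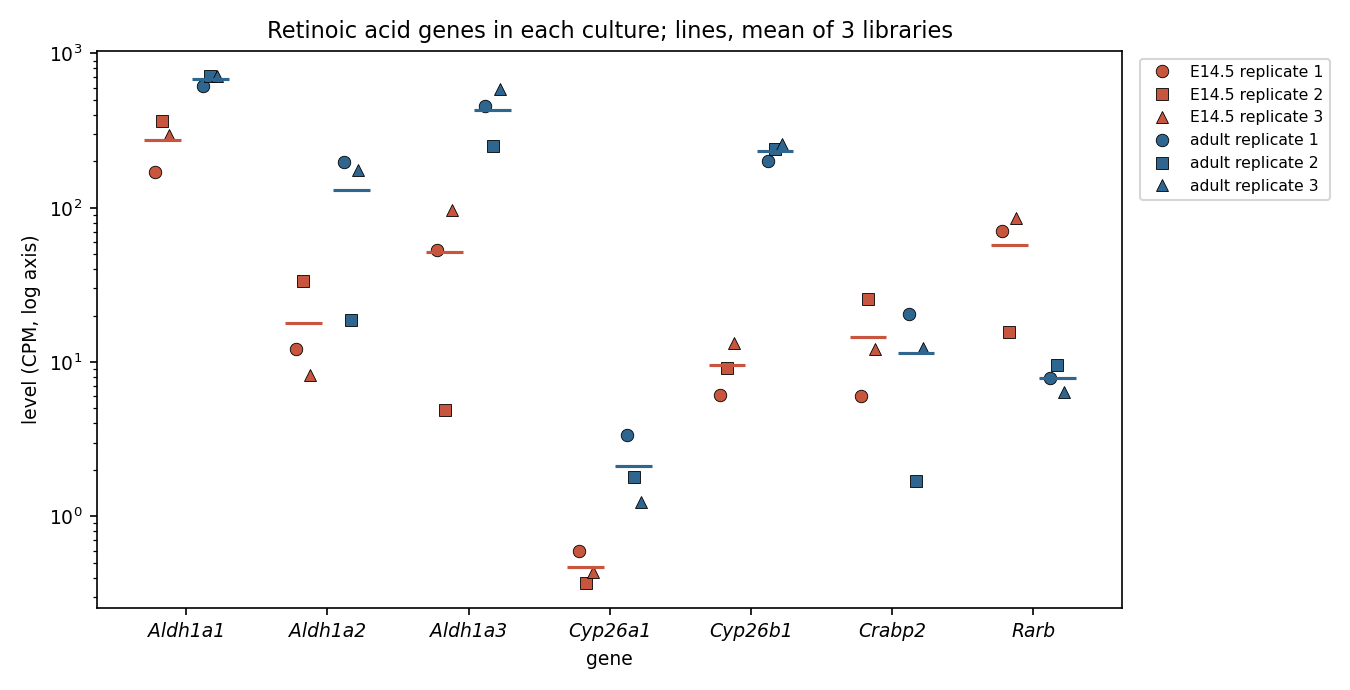
Levels of the 7 tested genes in CPM on a log axis, with 1 point per library, replicates told apart by shape and lines at the mean of 3 libraries for E14.5 (left of each pair) and adult cultures. The groups do not overlap for Aldh1a1, Aldh1a3, Cyp26a1, Cyp26b1 and Rarb, and they overlap for Aldh1a2 and Crabp2.

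The synthesis genes encode retinaldehyde dehydrogenases, which carry out the irreversible last step to retinoic acid. Aldh1a1, on chromosome 19 from 20492715 to 20643465 of mm10 (plus strand), was the member of highest level in both groups. It measured 170, 363 and 297 CPM in E14.5 replicates 1, 2 and 3, against 614, 713 and 714 CPM in adult replicates 1, 2 and 3. Every embryonic library lay below every adult one, and adults varied little among themselves. The mean was 277 ± 98.1 CPM in embryonic and 680.2 ± 57.5 CPM in adult cells (SD, n = 3 each), a log2 fold change of -1.30 (SE 0.28, adjusted p = 0.098, edgeR quasi-likelihood test with Benjamini-Hochberg adjustment). It did not pass the test. Sample titles begin with a prefix that 1 library of each group shares, here the same replicate number, and between those libraries the log2 difference was -1.85, -0.97 and -1.26.

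Aldh1a2, on chromosome 9 from 71215789 to 71296243 (plus strand), encodes the enzyme that supplies most retinoic acid in early mouse embryos. It had 12.2, 33.6 and 8.28 CPM in E14.5 replicates 1, 2 and 3, against 199, 18.7 and 176 CPM in adult replicates 1, 2 and 3. Adult replicates 1 and 3 were high, and adult replicate 2 lay inside the embryonic range, so the groups overlapped. This gave a log2 fold change of -2.86 (SE 0.95, adjusted p = 0.194, edgeR), and between libraries of one prefix the difference was -4.02, 0.84 and -4.39, with 1 of the 3 in the opposite direction. Without adult replicate 2 it was -3.38 (adjusted p = 0.116), and without E14.5 replicate 2 it was -3.68 (adjusted p = 0.124). Adult replicate 2 had the highest endothelial marker sum, at 1915 CPM, against 29.6 and 419 CPM in adult replicates 1 and 3. Mesothelial markers in the adults were 1574, 669 and 825 CPM in replicates 1, 2 and 3. The part of these cells in the level of Aldh1a2 was not tested.

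Aldh1a3, on chromosome 7 from 66390890 to 66427517 (minus strand), encodes the third enzyme of the family. It measured 52.9, 4.87 and 96.3 CPM in E14.5 replicates 1, 2 and 3, against 459, 250 and 589 CPM in adult replicates 1, 2 and 3. The groups did not overlap, and E14.5 replicate 2 was far below the other 2 embryonic libraries. The estimated log2 fold change of -3.07 (SE 0.98, adjusted p = 0.179, edgeR) did not pass the test. Between libraries of one prefix it was -3.12, -5.66 and -2.61. Without E14.5 replicate 2 it was -2.54, with a lower adjusted p of 0.058, and without E14.5 replicate 3 it was -3.90 (adjusted p = 0.179).

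Set per kilobase of exon, so that genes can be compared with each other, the 3 synthesis genes together reached 85.5, 162 and 145 CPM per kb in E14.5 replicates 1, 2 and 3, against 437, 350.3 and 496 CPM per kb in adult replicates 1, 2 and 3. Aldh1a1 held 79.8%, 90.1% and 82.4% of this sum in the E14.5 libraries, against 56.2%, 81.5% and 57.6% in the adult ones. The share of Aldh1a3 was 13.95%, 0.680% and 15.0% in E14.5 and 23.7%, 16.1% and 26.8% in adult replicates 1, 2 and 3. Aldh1a2 held the rest, 6.28%, 9.20% and 2.53% in E14.5 and 20.1%, 2.36% and 15.6% in adult replicates 1, 2 and 3. The gene rows leave out multimapping reads, so Aldh1a1 and Aldh1a7, which resembles it closely in mouse, are measured with some uncertainty. Aldh1a7 stood at 6.06 ± 2.89 CPM in embryonic and 6.51 ± 1.76 CPM in adult cells (SD, n = 3 each).

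**Figure D2:**
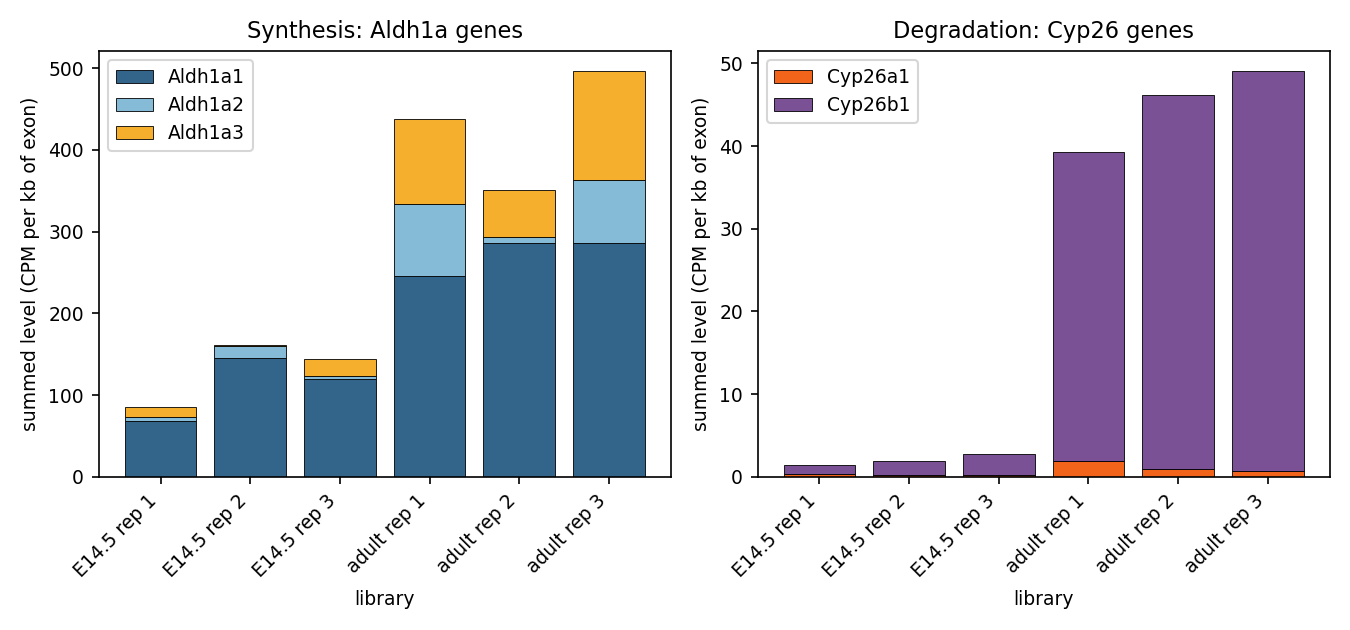
Summed levels in CPM per kb of exon in each library, for the Aldh1a genes on the left and the Cyp26 genes on the right, on separate linear axes that start at 0. The Aldh1a sum spans 85.5 to 162 in E14.5 and 350.3 to 496 in adult libraries, and the Cyp26 sum 1.48 to 2.76 in E14.5 and 39.3 to 49.1 in adult libraries.

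The degradation genes encode cytochrome P450 enzymes of the CYP26 family. Cyp26b1, on chromosome 6 from 84571414 to 84593908 (minus strand), measured 6.16, 9.15 and 13.4 CPM in E14.5 replicates 1, 2 and 3, against 200.1, 242 and 259 CPM in adult replicates 1, 2 and 3. All embryonic libraries were low and all adult libraries high, with a wide gap between them. It fell by 4.61 on the log2 scale in E14.5 (SE 0.33, adjusted p = 0.015, edgeR), to 9.56 ± 3.63 CPM in E14.5, against 234 ± 30.3 CPM in adults (SD, n = 3 each). Adults thus had 24.4 times the embryonic level. By p-value the gene ranked 5 among 13478 tested, whereas by size of change it ranked 157. Between libraries of one prefix the difference was -5.01, -4.71 and -4.27, each in the same direction. The call was lost without adult replicate 3 (log2 fold change -4.53, adjusted p = 0.132) and with the title prefix as a block (-4.67, adjusted p = 0.064). Without adult replicate 2, the library of most endothelial marker RNA, it was -4.59 (adjusted p = 0.031). With neither adult replicate 2 nor 3 it was -4.40 (adjusted p = 0.319). Pdgfra, Col1a2 and Thy1, 3 of the 8 fibroblast markers, were likewise lower in all embryonic libraries, and 0 lay the other way. Col1a2 had 1088 to 2032 CPM in embryonic and 2442 to 4438 CPM in adult libraries. Thy1 had 39.6 to 128.4 CPM in embryonic and 173.2 to 358.4 CPM in adult libraries. The summed level of all 8 overlapped between the groups. Col1a1, the marker of highest level in that sum, also overlapped, at 5744 to 11530 CPM in embryonic and 3708 to 6144 CPM in adult libraries. The part of the mix of cells in the level of Cyp26b1 was not tested.

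Cyp26a1, on chromosome 19 from 37697798 to 37701536 (plus strand), is the family member that retinoic acid itself induces most sharply in many cells. It was scarce, at 19, 12 and 14 counts in E14.5 replicates 1, 2 and 3, against 89, 36 and 35 counts in adult replicates 1, 2 and 3. As levels these were 0.594, 0.372 and 0.433 CPM in E14.5 and 3.37, 1.79 and 1.23 CPM in adults. The groups did not overlap, and adult replicate 1 was the highest. The log2 fold change of -2.18 (SE 0.50, adjusted p = 0.106, edgeR) did not pass the test. It was -2.37, -2.07 and -1.37 between libraries of one prefix. Without adult replicate 1 it was -1.68 (adjusted p = 0.222). Cyp26c1, the third gene of the family, which adjoins Cyp26a1 on chromosome 19, had 0, 1 and 1 counts in E14.5 and 1, 1 and 0 counts in adult replicates 1, 2 and 3.

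Per kilobase of exon, the 3 Cyp26 genes together reached 1.48, 1.94 and 2.76 CPM per kb in E14.5 replicates 1, 2 and 3, against 39.3, 46.2 and 49.1 CPM per kb in adult replicates 1, 2 and 3. Cyp26b1 made up 77.6% to 90.6% of the sum in E14.5 and 95.2% to 98.6% in adult libraries. The summed Aldh1a level was 57.7, 83.4 and 52.4 times the summed Cyp26 level in E14.5 replicates 1, 2 and 3, and 11.1, 7.58 and 10.1 times in adult replicates 1, 2 and 3. Both sums were therefore lower in the embryonic cultures, and the synthesis sum stood further above the degradation sum there. These are ratios of RNA levels and not of enzyme activities, and they have no test because the members were chosen with results known.

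Rarb encodes retinoic acid receptor beta and lies on chromosome 14 from 16430839 to 16819156 (minus strand). It was the one tested member with every embryonic library above every adult one. Its level was 70.7, 15.6 and 85.9 CPM in E14.5 replicates 1, 2 and 3, against 7.91, 9.54 and 6.36 CPM in adult replicates 1, 2 and 3. E14.5 replicate 2 stood much closer to the adults than the other embryonic libraries did. The means were 57.4 ± 37.0 CPM in embryonic and 7.94 ± 1.59 CPM in adult cells (SD, n = 3 each), a log2 fold change of 2.86 (SE 0.62, adjusted p = 0.099, edgeR). It did not pass with all libraries. Without E14.5 replicate 2 it was 3.31, with adjusted p = 0.011, which passed. The differences between libraries of one prefix were 3.15, 0.70 and 3.74. Rarb and Top2b overlap on opposite strands, and counting by strand keeps their reads apart.

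**Figure D3:**
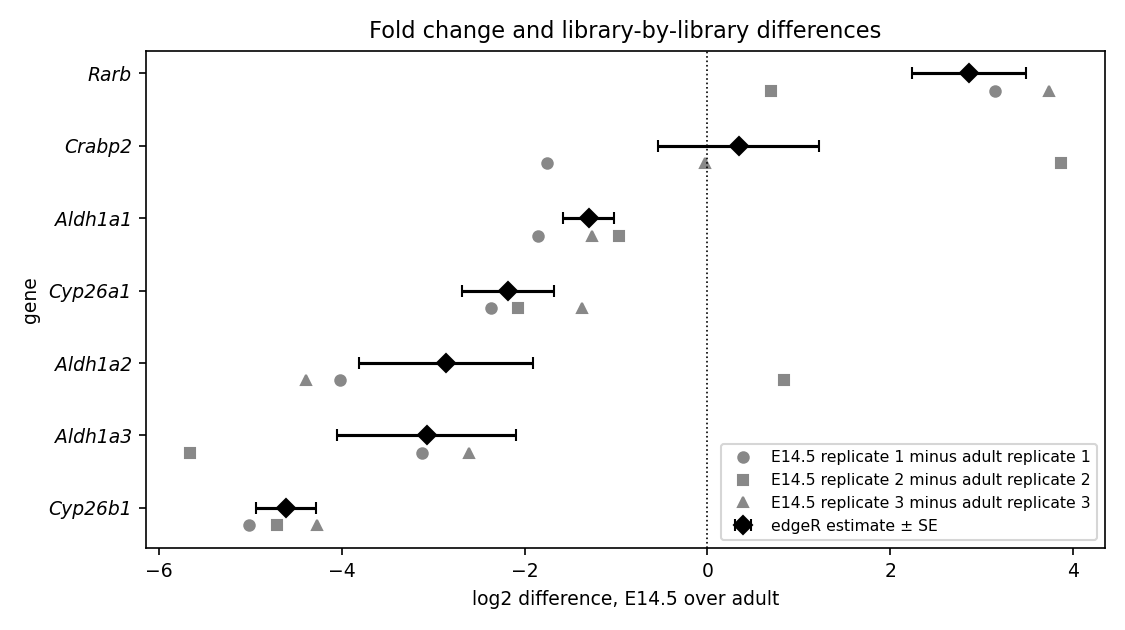
Log2 difference of E14.5 over adult for the 7 tested genes, with diamonds at the edgeR estimate and bars of 1 SE, and grey points for the difference between libraries that share a title prefix, which have the same replicate number here. All 3 points lie below 0 for Cyp26b1, Aldh1a3, Cyp26a1 and Aldh1a1 and above 0 for Rarb, whereas they fall on both sides for Aldh1a2 and Crabp2.

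The promoters of Rarb and Cyp26a1, whose embryonic levels lay above and below the adult ones though neither was called, are shown with that of Cyp26b1 because RAR and RXR bind pairs of short repeats in DNA. RefSeq windows (GRCm38.p6, the build named mm10) from 250 bases before to 50 bases after a start site were searched on both strands. The motif was a pair of half-sites, each AGGTCA or the variant AGTTCA or the variant GGTTCA or the variant GGGTCA, in the same orientation, spaced by 1, 2 or 5 bases. Capitals mark the repeat. The windows are chr14:16575427-16575726 (minus strand) for Rarb, chr19:37697558-37697857 (plus strand) for Cyp26a1 and chr6:84593761-84594060 (minus strand) for Cyp26b1.
Rarb: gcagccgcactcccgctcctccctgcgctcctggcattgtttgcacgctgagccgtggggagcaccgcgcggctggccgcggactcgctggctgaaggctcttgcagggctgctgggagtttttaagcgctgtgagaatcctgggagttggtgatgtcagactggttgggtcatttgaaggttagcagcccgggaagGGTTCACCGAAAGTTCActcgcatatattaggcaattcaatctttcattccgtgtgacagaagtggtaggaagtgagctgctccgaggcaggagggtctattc
Cyp26a1: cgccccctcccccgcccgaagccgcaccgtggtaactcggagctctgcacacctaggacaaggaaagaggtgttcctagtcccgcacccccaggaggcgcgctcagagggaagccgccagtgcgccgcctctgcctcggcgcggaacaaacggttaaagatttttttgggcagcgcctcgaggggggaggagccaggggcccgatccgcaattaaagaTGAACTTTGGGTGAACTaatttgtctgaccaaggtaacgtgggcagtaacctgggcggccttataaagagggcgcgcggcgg
Cyp26b1: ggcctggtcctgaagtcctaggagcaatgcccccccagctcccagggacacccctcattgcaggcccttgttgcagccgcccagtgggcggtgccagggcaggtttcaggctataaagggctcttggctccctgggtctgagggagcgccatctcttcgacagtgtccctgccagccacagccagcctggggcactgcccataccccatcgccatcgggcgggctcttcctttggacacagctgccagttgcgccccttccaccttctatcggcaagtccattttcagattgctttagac

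Of the 9 members, 7 matched in the RefSeq table, with 11 windows, and Aldh1a3 and Crabp2 did not. A repeat spaced by 5 bases was found for Rarb, from 53 to 37 bases before the start site, and for Cyp26a1, on the other strand from 32 to 16 bases before it. Read in one orientation, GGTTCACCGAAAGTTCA of Rarb and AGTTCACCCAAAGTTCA of Cyp26a1 are identical at 15 of 17 positions. The substitutions are G1A and G9C, counted from the 5′ end with the base of Rarb first. Such a repeat spaced by 5 was present in 0.0974% of 32851 promoter windows, and a repeat of any of the 3 spacings in 0.588%. Rarb and Cyp26a1 were known beforehand as genes that retinoic acid induces, so these shares are a background and not a test. The windows of Cyp26b1, Aldh1a2 and Crabp1 held no half-site, and 43.7% of all windows held at least 1. A match is a description of these letters and not a measured site. The Rarb window lies 243680 bases inside the GENCODE span of the gene, and gene counts do not tell which of its start sites was used.

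The cytosolic binding proteins showed no common pattern. Crabp2, on chromosome 3 from 87948666 to 87953376 (plus strand), encodes the protein that passes retinoic acid to RAR in the nucleus. It had 6.004, 25.7 and 12.2 CPM in E14.5 replicates 1, 2 and 3, against 20.4, 1.69 and 12.4 CPM in adult replicates 1, 2 and 3. E14.5 replicate 2 was the highest of all and adult replicate 2 the lowest, and the groups overlapped. Its log2 fold change of 0.34 (SE 0.88, adjusted p = 0.90, edgeR) was within the spread between cultures. Leaving out E14.5 replicate 2 turned it to -0.34, and leaving out adult replicate 2 to -0.17, whereas it was 1.04 without adult replicate 1. Crabp1, on chromosome 9 from 54764748 to 54773110, encodes the related protein linked to breakdown of retinoic acid. It had 52, 6 and 6 counts in E14.5 replicates 1, 2 and 3, against 0, 8 and 4 counts in adult replicates 1, 2 and 3, too few to test. The 0 counts of adult replicate 1 allow a level of up to 0.114 CPM, from a floor of 3 counts that covers counting error only, and E14.5 replicate 1 was the highest at 1.63 CPM.

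Stra6, on chromosome 9 from 58063788 to 58153996, encodes the receptor that takes up retinol from its carrier in blood. It had 1, 2 and 2 counts in E14.5 replicates 1, 2 and 3, against 5, 6 and 3 counts in adult replicates 1, 2 and 3. All 6 values are near the floor of 3 counts, so no fold is given.

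The order of levels per kilobase of exon differed between the groups. In E14.5 cultures Aldh1a1 led with 111 ± 39.3 CPM per kb, followed by Crabp2 (15.7), Rarb (14.6), Aldh1a3 (11.6) and Aldh1a2 (7.96), whose neighbours overlapped in range over libraries. Then came Cyp26b1 at 1.79, Crabp1 at 0.830, Cyp26a1 at 0.260 and Stra6 at 0.0116 CPM per kb. In adult cultures Aldh1a1 led with 272.5 ± 23.0 CPM per kb, followed by Aldh1a3 (97.6), Aldh1a2 (57.9) and Cyp26b1 (43.7), of which neighbours again overlapped in range. Crabp2 at 12.3, Rarb at 2.01, Cyp26a1 at 1.19, Crabp1 at 0.224 and Stra6 at 0.0445 CPM per kb came after them. The range of Aldh1a1 lay clear of the next gene in both groups. Cyp26b1 thus came just after Aldh1a2 in both orders, without overlap between this pair in E14.5 and with overlap in adults.

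Replicates varied more for most of these genes than for a typical gene. The SD of log2 CPM between E14.5 libraries was 2.27 for Aldh1a3, 1.35 for Rarb, 1.04 for Aldh1a2 and 1.04 for Crabp2, against a median of 0.30 over all genes tested. Between adult libraries it was 1.92 for Aldh1a2 and 1.87 for Crabp2, against a median of 0.19. Cyp26b1 had an SD of 0.56 in E14.5 and 0.19 in adults. Around each gene's own mean, E14.5 replicate 2 was the highest embryonic library for Aldh1a1, Aldh1a2 and Crabp2 and the lowest for Aldh1a3, Cyp26a1 and Rarb. Adult replicate 2 was the lowest adult library for Aldh1a2, Aldh1a3 and Crabp2. The fibroblast marker sum was 12570 CPM in E14.5 replicate 2 and 12220 CPM in adult replicate 2, against 22020 and 24340 CPM in the other embryonic and 20380 and 20910 CPM in the other adult libraries. Whether the mix of cells sets these levels was not tested.

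**Figure D4:**
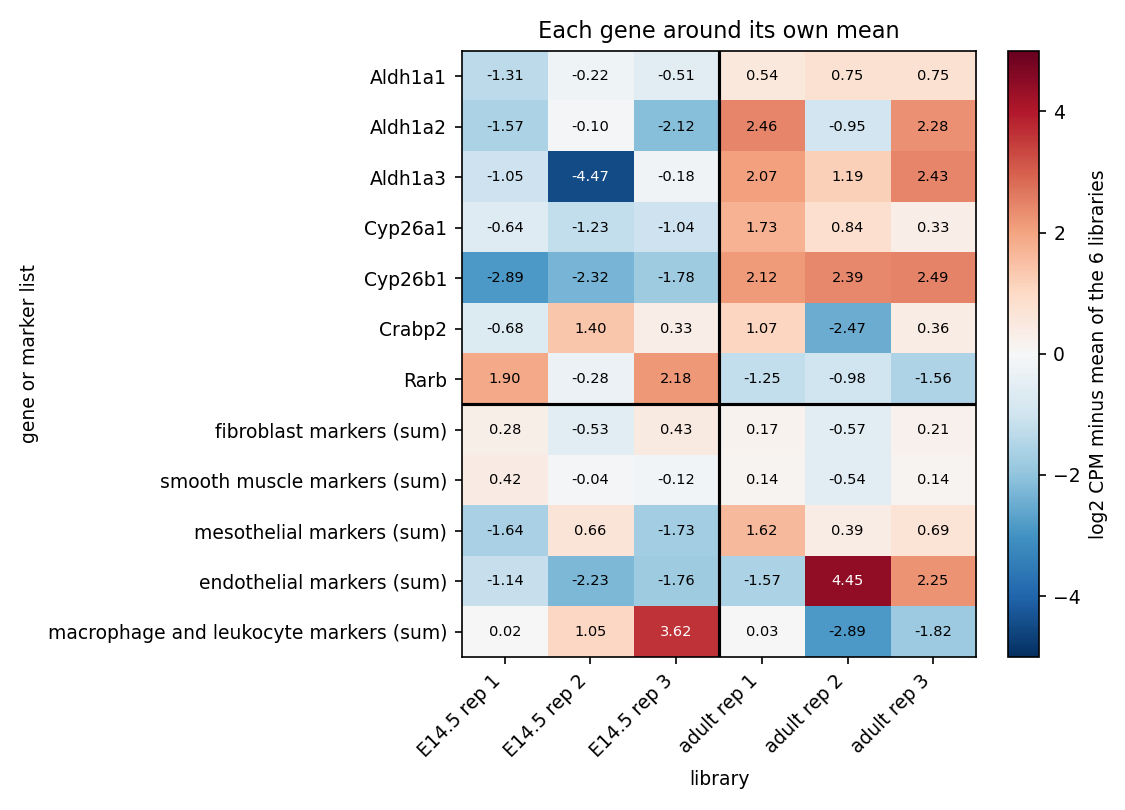
Log2 CPM of each tested gene, and of summed marker lists below the line, minus its mean over the 6 libraries, with E14.5 libraries left of adult ones. Cyp26b1 splits the groups in every library (-2.89 to -1.78 against 2.12 to 2.49). Aldh1a2 and Crabp2 are low in adult replicate 2, at -0.95 and -2.47, where endothelial markers are at 4.45. In adult replicate 3, with endothelial markers at 2.25, Aldh1a2 is at 2.28 and Crabp2 at 0.36.

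Genes of like pattern were sought by the Euclidean distance between log2 CPM profiles over the 6 libraries, each centred on its own mean, among 9215 tested genes whose higher group averaged 10 CPM or more. For Cyp26b1 the nearest were Gm12824 (distance 0.40), Angpt2 (1.13) and Serpinb1a (1.25), where the median gene lay at 5.81. Gm12824 had 2.63, 2.95 and 4.42 CPM in E14.5 and 81.8, 79.3 and 102 CPM in adult replicates 1, 2 and 3. For Rarb the nearest were Slc35f2 (0.48), the laminin gene Lama1 (0.69) and the septin gene Sept4 (0.72), with a median of 3.70. Lama1 had 189, 40.1 and 216 CPM in E14.5 and 26.1, 16.5 and 17.9 CPM in adult replicates 1, 2 and 3, so it shared the low value in E14.5 replicate 2. For Aldh1a1 they were Cyp39a1 (0.27), Capn5 (0.33) and Ttc39b (0.34), with a median of 1.96. For Aldh1a2 the nearest pair were the forkhead gene Foxs1 (0.47) and the connexin gene Gjb5 (0.86), with a median of 4.39. Foxs1 had 6.47, 14.9 and 4.33 CPM in E14.5 and 86.1, 10.4 and 67.7 CPM in adult replicates 1, 2 and 3, low in adult replicate 2 as Aldh1a2 was. For Aldh1a3 they were Ebf1 (0.86), Agtr1a (1.21) and Atp8b1 (1.60), with a median of 5.76. For Cyp26a1 they were Tshz3 (0.94), Lingo1 (0.98) and Ier5l (0.98), with a median of 2.67, and for Crabp2 Itm2a (1.24), Anxa8 (1.36) and Lpcat2 (1.51), with a median of 3.18. Among the members, the closest pair was Cyp26a1 and Aldh1a1 at a distance of 1.84. The median gene lay at 1.96 from Aldh1a1 and at 2.67 from Cyp26a1. Cyp26a1 was thus little closer to Aldh1a1 than the median gene was.

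The rest of the retinoid pathway had no member past the test. Of 63 other listed genes, 62 have a row and 45 were tested, and 0 passed in either direction (edgeR), with 4 at an unadjusted p under 0.05, 2 called by DESeq2 and 0 by limma-voom. Their median log2 fold change was 0.01, the same as over all genes tested, and 24 were positive and 21 negative. Those at an unadjusted p under 0.05 each had a negative value, and Rarres1 and Ret among them are named after their values were seen.

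Among genes for uptake and storage, 2 of 8 listed were tested. Dgat1, an acyltransferase gene that can esterify retinol, averaged 16.5 CPM in embryonic and 19.6 CPM in adult cells. Lrat, for the main enzyme of retinol storage, had 5, 0 and 6 counts in E14.5 and 0 counts in each adult library.

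A list of 19 genes covered enzymes that interconvert retinol and retinaldehyde, with the carotenoid oxygenase genes Bcmo1 and Bco2 added. Of the 19, 12 were tested, with a median log2 fold change of -0.11 and 6 positive. Dhrs3, whose enzyme turns retinaldehyde back to retinol, had 59.0, 10.3 and 131 CPM in E14.5 replicates 1, 2 and 3, against 32.5, 18.1 and 27.3 CPM in adult replicates 1, 2 and 3. E14.5 replicates 1 and 3 were high and E14.5 replicate 2 was the lowest of all, so the groups overlapped (log2 fold change 1.36, SE 0.81, adjusted p = 0.461, edgeR). It was 1.87 without E14.5 replicate 2 (adjusted p = 0.075) and 0.42 without E14.5 replicate 3 (adjusted p = 0.791), the library of most macrophage and leukocyte marker RNA. Adh5, a class of alcohol dehydrogenase found in nearly all tissues, measured 96.8 ± 6.14 CPM in embryonic and 82.9 ± 2.93 CPM in adult cells (SD, n = 3 each; adjusted p = 0.310, edgeR).

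Receptor and coregulator genes other than Rarb differed little. None of the 4 tested of 5 other receptor genes was called by edgeR, DESeq2 or limma-voom. An unadjusted p under 0.05 in edgeR was found for 0 of them, against 17.9% of all genes tested. Rxra, for the common partner of RAR, measured 46.6 ± 16.0 CPM in embryonic and 54.6 ± 6.52 CPM in adult cells, and Rarg 37.2 ± 3.13 CPM in embryonic and 42.9 ± 2.91 CPM in adult cells (SD, n = 3 each). All 7 coregulators were tested, with a median log2 fold change of 0.08. Ncor1, a corepressor gene, measured 128 CPM in embryonic and 157 CPM in adult cells. Fabp5, for a carrier that can pass retinoic acid to another nuclear receptor, measured 97.6 ± 66.0 CPM in embryonic and 96.6 ± 28.7 CPM in adult cells.

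Genes known from other systems to be induced by retinoic acid had values in both directions. Of 19 listed, 17 were tested, 11 had a positive and 6 a negative log2 fold change, and the median was 0.17. Tgm2, the transglutaminase gene, had 619, 720 and 901 CPM in E14.5 replicates 1, 2 and 3, against 1534, 691 and 1537 CPM in adult replicates 1, 2 and 3. Adult replicate 2 lay among the embryonic libraries (log2 fold change -0.75, SE 0.34, adjusted p = 0.320, edgeR), and without it the value was -1.04 (adjusted p = 0.122). Rarres1 had 6, 7 and 11 counts in E14.5 and 22, 63 and 30 counts in adult replicates 1, 2 and 3 (log2 fold change -2.72, SE 0.66, adjusted p = 0.116, edgeR). DESeq2 called it, and counts were low in both groups.

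**Figure D5:**
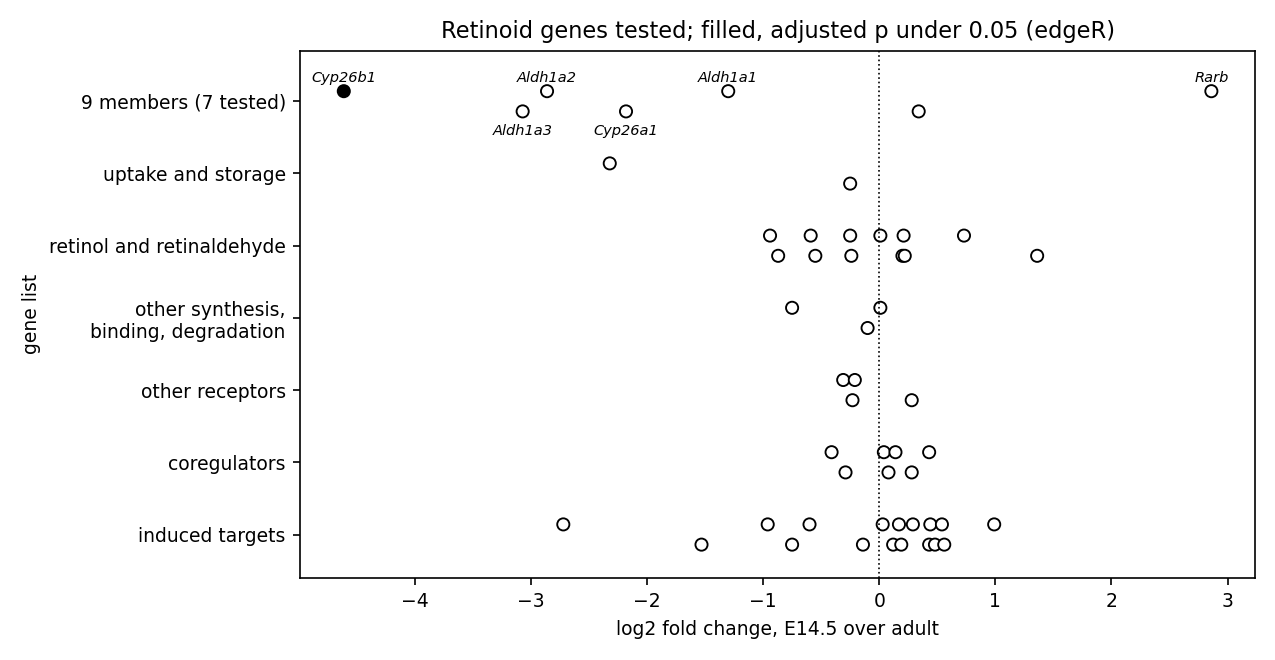
Log2 fold change of E14.5 over adult for each tested gene, with 1 row for the 9 members and 1 for each of the 6 other retinoid lists, and names printed for members with changes of at least 1. Cyp26b1 at -4.61 is the one filled point, for an adjusted p under 0.05 in edgeR, and most of the 45 other genes lie close to 0.

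Dendritic cells, a known source of ALDH1A2 in the gut, left little RNA. Of 6 markers, 2 were detected in every library, and the sum of all 6 was 7.16, 10.1 and 13.7 CPM in E14.5 replicates 1, 2 and 3, against 7.38, 5.46 and 6.996 CPM in adult replicates 1, 2 and 3. Zbtb46, which endothelial cells also express, made up 3.65 to 9.25 CPM of this in E14.5 and 5.21 to 6.93 CPM in adults. Itgax had 2.345, 0.776 and 9.95 CPM in E14.5 replicates 1, 2 and 3, against 0.644, 0.199 and 0.0703 CPM in adult replicates 1, 2 and 3. Its level was thus higher in every E14.5 library than in any adult one, but it was not called. Xcr1 and Clec9a were each at 0 in all libraries but 1. Mesothelial markers were lower in each E14.5 library than in each adult library for 3 of 8 genes, fibroblast markers for 3 of 8 and endothelial markers for 6 of 10, where 12.0% of all genes tested lay that way. Macrophage and leukocyte markers were higher for 9 of 11, where 12.1% lay that way.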

How the data were processed

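RNA-seq counts from 3 E14.5 and 3 adult cultures were used. Per library, 1 table of raw counts was deposited, with whole numbers of reads for each gene and no normalization, and 3 columns for unstranded, forward and reverse counting. Reads of 75 bp were aligned with STAR to mm10, per the submitters' processing notes, which name neither the version of STAR nor the annotation. The reverse column was used, since forward counts were 1.33% to 1.69% of stranded gene counts. The rows that name no gene (unmapped, multimapping, unassigned, ambiguous) took 17.45% to 19.81% of reads and were left out.

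Genes were kept by filterByExpr (13478), scaled by TMM and tested in edgeR 4.0.16 (R 4.3.3) with robust quasi-likelihood dispersion, E14.5 over adult, Benjamini-Hochberg adjustment over all genes and a threshold of 0.05. The steps were tested on simulated data. The SE of a log2 fold change is its size over the square root of F, which is approximate. CPM uses TMM-scaled library sizes, and log2 CPM a prior count of 2. Exon lengths and positions are from GENCODE M21, which may differ from the authors' annotation. Replicates were numbered in accession order. The labels do not say that cultures came from separate animals, so p-values measure the spread between these cultures. Members and lists were chosen with earlier results of these data known. Named were all members and, of each other list, genes past the threshold and the 2 of highest mean CPM not past it, with exceptions said, and some genes under this rule are not reported here. Alternatives were DESeq2 1.42.0, limma-voom (limma 3.58.1), other scalings and filters, the unstranded column, a threshold of 0.01, a block and libraries left out.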

Additional observations from a re-analysis of the deposited data

How the results depend on the processing

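Of 119 recomputed fold changes of the 7 tested members, 106 kept their direction and side of the threshold. DESeq2 called 6 members (1427 genes in all), with -2.19 for Cyp26a1, -1.29 for Aldh1a1, -2.85 for Aldh1a2, -3.08 for Aldh1a3 and 2.85 for Rarb, and the cause was not tested. Members called numbered 0 with the prefix as a replicate block (2 genes in all), 0 without both adult replicates 2 and 3 (0 genes, with 842 at an unadjusted p under 0.05) and 0 at a threshold of 0.01 (2 genes). With 1 library left out they numbered 0 (without adult replicate 3) to 2 (without E14.5 replicate 2). All libraries together gave 146 called genes. Dropping E14.5 replicate 2 gave 471, dropping E14.5 replicate 1 gave 3, and dropping adult replicate 1, 2 or 3 gave 38, 46 or 3. With E14.5 replicate 3 and adult replicate 2 both left out, 36 genes were called. Cyp26b1 lost its call with the block (-4.67) and without both adult replicates 2 and 3 (-4.40), where the lone adult library is assumed to vary like the others. With 1 library left out it lay between -4.93 and -4.38, and Rarb between 2.45 and 3.31. Crabp2 lay between -0.34 and 1.04 with 1 library left out. It was -0.05 with E14.5 replicate 3 and adult replicate 2 left out, and -0.48 without both adult replicates 2 and 3. Fabp5 reversed to -0.30 with limma-voom, -0.28 with the block, and -0.70 and -0.05 without those pairs of libraries, and lay between -0.48 and 0.47 with 1 left out. Aldh1a7 reversed to 0.21 and 0.18 without those pairs, and lay between -0.54 and 0.17 with 1 left out. Libraries of one prefix did not deviate together from their group means over all genes tested (r of -0.141, -0.229 and -0.088). These correlations cannot decide what the prefix marks, and the labels do not say, so it entered only as the alternative block. Low counts limit Cyp26a1, Crabp1 and Stra6.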
